A study of Sorghum bicolor with 12 samples.

Results

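Sobic.001G470600 and Sobic.001G470800 are a pair of neighbouring sorghum genes chosen as group 1, high-affinity sulfate transporters. Each locus is listed with 1 transcript, so the pair holds 2 of the 34210 transcripts in the RNA table and 2 of the 34026 in the footprint table. That identity comes from the definition by which the pair was chosen. The deposited tables carry IDs without product names, and 0 of 34210 loci matched the reference gene table used here, so it was not checked against an annotation. The members were selected on measured values, since the pair was proposed with its mRNA and footprint differences between treatments known. These differences are therefore given as a description with no test. The ratio of footprints to mRNA was not itself part of the rule, but its change with treatment follows from those known differences.

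Group 1 sulfate transporters are plasma membrane proteins that carry sulfate into the cell together with protons. In Arabidopsis thaliana the root members take up sulfate from the soil solution and their transcripts accumulate when sulfate is scarce, while another member loads sulfate into the phloem. Sulfate taken up in this way is reduced to sulfide in plastids and built into cysteine, the precursor of methionine and glutathione.

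The shoots came from Sorghum bicolor cultivar BTx623. The sulfur-deficient group received a nutrient solution with 10 µM sulfate per the sample titles and the growth protocol, although the series' design text gives 0 µM. Control shoots received 500 µM sulfate. All seedlings were germinated for 5 days on water, grown on the treatment solution for 8 days and harvested as whole shoots 13 days after sowing. Each treatment had 3 shoots, described as biological replicates, and 1 powdered shoot gave both an RNA-seq library (mRNA reads) and a Ribo-seq library (short mRNA fragments covered by ribosomes, or footprints), 12 libraries in all. A whole shoot mixes leaf, sheath, vascular and meristem cells, so more cells of a type and more RNA per cell cannot be told apart in these data. Markers of shoot and root tissue could not be looked up without product names.

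Sequencing depth ranged from 13995665 to 18475153 counts per RNA library and, for footprints, between 6328659 and 11066815. No 2 libraries of a group agreed within sampling noise (chi-square per degree of freedom of at least 2.7), and each was kept as its own sample. The RNA library of sulfur-deficient shoot 1 stood closer to that of control shoot 3 (r = 0.992 over log2 CPM) than to those of the other deficient shoots (r = 0.990 and 0.989). In footprints, deficient shoot 1 stood closest to control shoot 1 (r = 0.984) and deficient shoot 3 stood closer to each control shoot (r = 0.982 to 0.983) than to the other deficient shoots (r = 0.979 and 0.977). Deficient shoot 2 had the largest footprint values of chi-square per degree of freedom. They were 18.8 with deficient shoot 3 and 17.2 to 29.2 with the control shoots. The mRNA results for the pair are therefore also given without deficient shoot 1, and its footprint results without each deficient shoot in turn.

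Both members carried more mRNA and more footprints in sulfur-deficient than in control shoots. Levels are in CPM, the count relative to the total of its library after scaling with TMM factors, which correct for differences in library composition. Among the 20045 transcripts with enough mRNA to test, the members lay between percentiles 92.1 and 95.5 of CPM in deficient shoots and between percentiles 69.8 and 85.8 in control shoots. The mRNA of Sobic.001G470600 stood at 107, 113 and 128 CPM in deficient shoots 1, 2 and 3, against 42.2, 30.8 and 44.1 CPM in control shoots 1, 2 and 3. The lowest deficient shoot thus lay above the highest control shoot. Its mean was 116 ± 10.6 CPM in deficient shoots and 39.1 ± 7.16 CPM in control shoots (SD, n = 3 each), a fitted log2 fold change of 1.57 (SE 0.133), or 2.97-fold.

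The mRNA of Sobic.001G470800 stood at 125, 169 and 172 CPM in deficient shoots 1, 2 and 3, against 67.1, 56.9 and 69.3 CPM in control shoots 1, 2 and 3. Deficient shoot 1 was the lowest of its group and still above every control shoot. The means were 155 ± 26.4 CPM in deficient and 64.4 ± 6.58 CPM in control shoots (SD, n = 3 each), a log2 fold change of 1.27 (SE 0.132), or 2.41-fold. Without deficient shoot 1 the log2 fold changes were 1.62 for Sobic.001G470600 and 1.40 for Sobic.001G470800.

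Footprints showed the same order of groups. Sobic.001G470600 had 61.3, 56.0 and 81.7 footprint CPM in deficient shoots 1, 2 and 3, against 22.9, 20.8 and 33.1 in control shoots 1, 2 and 3. Shoot 3 was the highest in each treatment for this gene. The means were 66.3 ± 13.6 CPM in deficient and 25.6 ± 6.58 CPM in control shoots (SD, n = 3 each), a log2 fold change of 1.38 (SE 0.203), or 2.60-fold. Its footprint counts were the lowest of the pair, 206 in control shoot 1 (95% exact Poisson interval 179 to 236, counting error only) and 652 in deficient shoot 3.

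Sobic.001G470800 had 239, 316 and 223 footprint CPM in deficient shoots 1, 2 and 3, against 134, 91.9 and 106 in control shoots 1, 2 and 3. Again every deficient shoot lay above every control shoot, and here shoot 2 was the highest of the deficient group. The means were 259 ± 49.7 CPM in deficient and 110 ± 21.3 CPM in control shoots (SD, n = 3 each), a log2 fold change of 1.23 (SE 0.179), or 2.35-fold. Without deficient shoot 1 the footprint log2 fold changes were 1.43 for Sobic.001G470600 and 1.29 for Sobic.001G470800. Without deficient shoot 2 they were 1.49 for Sobic.001G470600 and 1.07 for Sobic.001G470800. Without deficient shoot 3 they were 1.20 for Sobic.001G470600 and 1.33 for Sobic.001G470800.

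**Figure D1:**
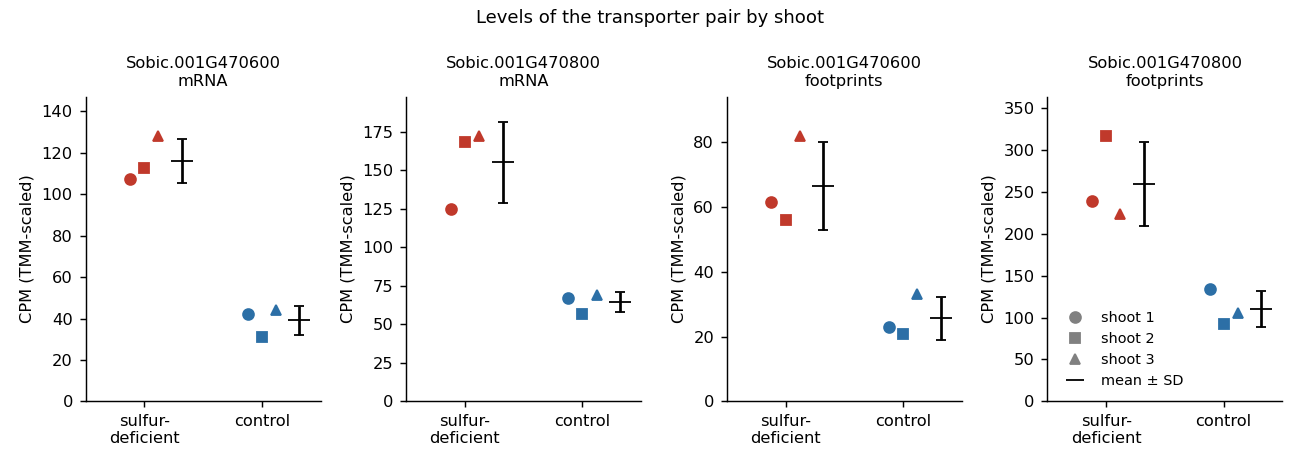
Levels of each member in CPM after TMM scaling, for mRNA (left pair of panels) and footprints (right pair), in sulfur-deficient (red) and control (blue) shoots. Symbols are single shoots and black bars are the mean ± SD of 3 shoots; each panel has its own axis from 0, and in every panel the deficient shoots lie above the control shoots.

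Both members passed the edgeR threshold (Benjamini-Hochberg adjusted p of at most 0.05) as higher in mRNA, as did 0.564% of the 20045 transcripts tested. Both also passed it in footprints, as did 0.212% of 16514, but there each member missed it with some shoots left out, among them control shoot 2 (edgeR adjusted p = 0.176 for Sobic.001G470600 and 0.164 for Sobic.001G470800). Groups that did not overlap, with deficient above control, were found for 9.42% of transcripts in mRNA and 5.9% in footprints. These comparisons chose the pair, and nothing is read from its place in them. Ordered from the highest log2 fold change, Sobic.001G470600 was number 36 and Sobic.001G470800 number 51 in mRNA, and they were numbers 35 and 57 in footprints. Over all transcripts tested, the median log2 fold change was -0.01 in mRNA and 0.0011 in footprints.

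**Figure D2:**
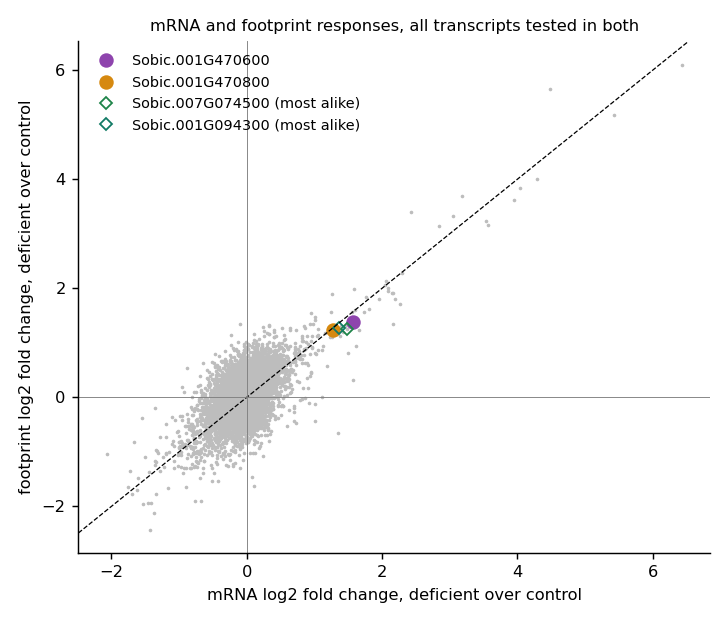
Log2 fold changes, sulfur-deficient over control, in mRNA (horizontal) and footprints (vertical) for the 16420 transcripts tested in both assays. Grey points are transcripts, the dashed line marks equal change, and the filled circles of the pair lie near that line at 1.57 and 1.38 for Sobic.001G470600 and at 1.27 and 1.23 for Sobic.001G470800.

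The spread between shoots was wider than counting error. The coefficient of variation of CPM within a group was 9.15% to 25.7% over the members, assays and treatments, where the mean counts alone would give 2.01% to 6.35%. In footprints, the 2 members did not vary together among deficient shoots. There, shoot 2 had the highest footprint level of Sobic.001G470800 and the lowest of Sobic.001G470600, while shoot 3 had the reverse. Among control shoots, shoot 2 was the lowest for both members, at 20.8 CPM for Sobic.001G470600 and 91.9 CPM for Sobic.001G470800. The highest control shoot was shoot 3 for Sobic.001G470600 and shoot 1 for Sobic.001G470800.

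Levels of the members were compared per coding base, which changes their count ratio little because the coding lengths are 1977 and 1983 bases (659 and 661 codons, as listed). In mRNA, Sobic.001G470800 exceeded Sobic.001G470600 by 1.16-, 1.49- and 1.34-fold in deficient shoots 1, 2 and 3, and by 1.58-, 1.84- and 1.57-fold in control shoots 1, 2 and 3. The ratio was thus above 1 in all 6 shoots, and lower in every deficient than in every control shoot. The log2 ratio averaged 0.40 ± 0.183 in deficient and 0.73 ± 0.13 in control shoots (SD, n = 3 each), a difference of -0.33. That difference follows from the larger mRNA response of Sobic.001G470600, and it was not tested.

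In footprints the gap between the members was wider. Sobic.001G470800 carried 3.88, 5.63 and 2.72 times the footprints of Sobic.001G470600 per coding base in deficient shoots 1, 2 and 3, and 5.81, 4.40 and 3.19 times in control shoots 1, 2 and 3. The treatments overlapped here. The log2 ratio averaged 1.97 ± 0.524 in deficient and 2.12 ± 0.433 in control shoots (SD, n = 3 each), and the difference of -0.15 was smaller than the spread between shoots of either treatment. On the TPM scale, where counts are first divided by coding length so that genes can be set side by side, the mRNA level of Sobic.001G470600 averaged 53.0 ± 4.48 in deficient and 18.3 ± 3.15 in control shoots, and its footprint level 29.4 ± 7.85 in deficient and 12.2 ± 3.38 in control shoots (SD, n = 3 each). The mRNA level of Sobic.001G470800 averaged 70.7 ± 11.9 TPM in deficient and 30.2 ± 2.72 TPM in control shoots, and its footprint level 113 ± 13.1 TPM in deficient and 52.2 ± 8.62 TPM in control shoots (SD, n = 3 each). By footprints Sobic.001G470800 was thus the higher member in every library.

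**Figure D3:**
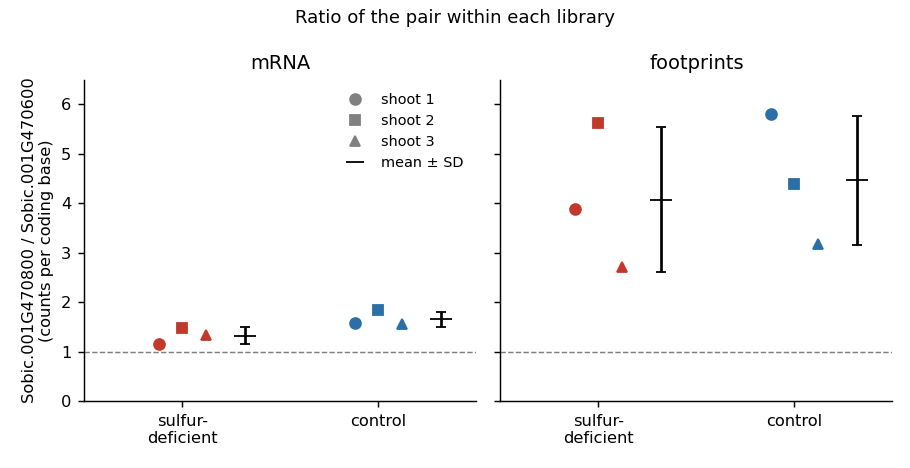
Ratio of Sobic.001G470800 to Sobic.001G470600 in counts per coding base within each library, for mRNA (left) and footprints (right), in sulfur-deficient and control shoots. Symbols are single shoots, bars are the mean ± SD of 3 shoots and the dashed line marks equal levels; all 12 libraries lie above it, at 1.16 to 1.84 in mRNA and at 2.72 to 5.81 in footprints.

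Because neighbouring members of a family can share reads, and how such reads were counted is not given in the sources used here, the pair was also summed. Its mRNA totalled 271 ± 35.1 CPM in deficient and 103 ± 13.7 CPM in control shoots, and its footprints 326 ± 40.1 CPM in deficient and 136 ± 22.1 CPM in control shoots (SD, n = 3 each). Refitted as 1 transcript, the pair had a log2 fold change of 1.39 (SE 0.122) in mRNA and 1.26 (SE 0.155) in footprints, which lie between those of its members. A transfer of reads from one member to the other would leave these sums as they are, while shared reads left out of the counts would lower them. The part of shared reads in the values of the members was not tested. In footprints the coefficient of variation of the sum was 12.3% in deficient and 16.2% in control shoots, below the 19.2% and 20.4% of the members in deficient shoots and their 19.2% and 25.7% in control shoots. In mRNA it lay between those of the members, at 12.9% against 9.15% and 17.0% in deficient shoots and at 13.3% against 18.3% and 10.2% in control shoots. Of the 168 CPM by which the summed mRNA of deficient shoots exceeded that of control shoots, Sobic.001G470800 held 54.1%. Of the corresponding 189.5 CPM in footprints it held 78.5%.

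The study paired both assays on each shoot to ask whether translation changes with sulfur supply, and in this pair the footprints per mRNA separated the members in every shoot. The ratio of footprint CPM to mRNA CPM, often called translational efficiency, was 0.571, 0.496 and 0.638 for Sobic.001G470600 in deficient shoots 1, 2 and 3, against 0.543, 0.674 and 0.751 in control shoots 1, 2 and 3. For Sobic.001G470800 it was 1.92, 1.87 and 1.30 in deficient shoots, against 1.99, 1.61 and 1.53 in control shoots 1, 2 and 3. For each member the treatments overlapped, but between the members no value did: the lowest ratio of Sobic.001G470800 was above the highest of Sobic.001G470600.

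Within a shoot, Sobic.001G470800 carried 3.35, 3.78 and 2.03 times the footprints per mRNA of Sobic.001G470600 in deficient shoots 1, 2 and 3, and 3.67, 2.39 and 2.04 times in control shoots 1, 2 and 3. The ratio was at least 2.03 in all 6 shoots, with a mean of 3.05 ± 0.911 in deficient and 2.70 ± 0.858 in control shoots (SD, n = 3 each). This contrast was noticed in the data and was not tested. A count bias particular to a transcript, such as mRNA reads from untranslated ends, repeats in every shoot and its part in the contrast was not tested. Reads shared by the members may be counted differently in each assay, and their part in the contrast was not tested either.

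Set among the 16420 transcripts tested in both assays, the members stood on different sides of the middle. Sobic.001G470600 lay between percentiles 24.4 and 35.6 of footprints per mRNA in deficient shoots and between percentiles 29.9 and 45.4 in control shoots. Sobic.001G470800 lay between percentiles 79.0 and 92.4 in deficient shoots and between percentiles 88.7 and 93.9 in control shoots. The median transcript had 0.82 footprints per mRNA in deficient and 0.805 in control shoots, in the same unit.

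**Figure D4:**
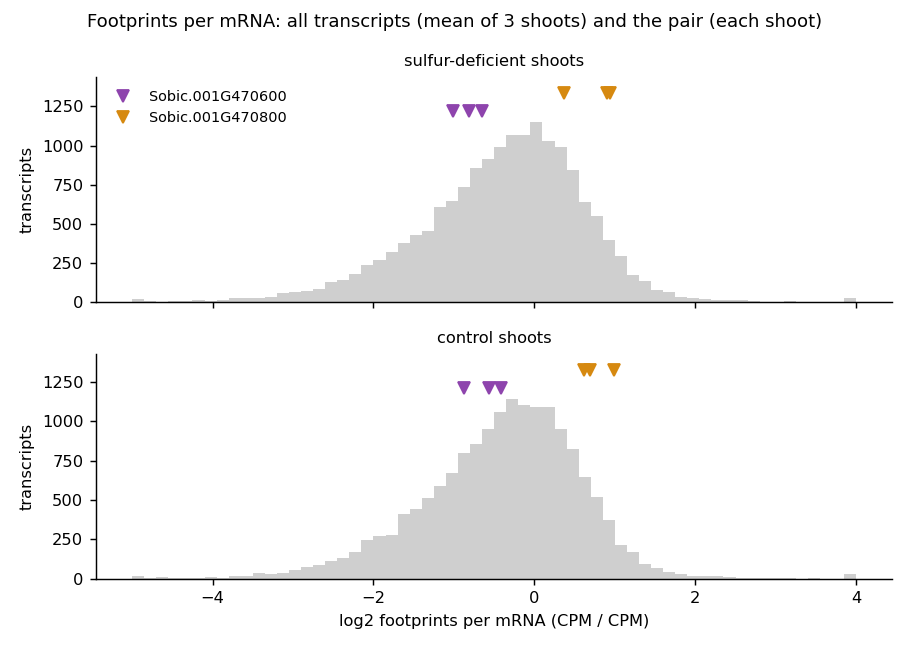
Histograms of log2 footprints per mRNA, as the mean of 3 shoots, over 16408 transcripts in sulfur-deficient shoots (top) and 16418 in control shoots (bottom), leaving out those with no count in a library and with values beyond the axis gathered in the end bins. Triangles mark the pair in each single shoot, at heights that carry no value; those of Sobic.001G470600 lie between -1.01 and -0.41 and those of Sobic.001G470800 between 0.37 and 0.99.

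Whether footprints per mRNA changed with treatment was asked in 1 model over all 12 libraries, by its assay-by-treatment term. Neither member passed. Sobic.001G470600 had a log2 change of -0.19 (95% interval -0.77 to 0.38, edgeR unadjusted p = 0.481, adjusted p = 1). Sobic.001G470800 had one of -0.04 (95% interval -0.55 to 0.48, edgeR unadjusted p = 0.883, adjusted p = 1). With the shoot as a block, since the assays share a powder, the intervals were narrower, at -0.53 to 0.12 for Sobic.001G470600 and -0.38 to 0.32 for Sobic.001G470800, and neither member passed (edgeR adjusted p = 0.993 and 0.998). The edgeR test called 0% of the 16420 transcripts, or 0 (408 at an unadjusted p under 0.05), and DESeq2 called 0 (342 at an unadjusted p under 0.05).

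No tested neighbour of the pair passed the threshold. So few of all transcripts passed it that a list of this size may hold none, and nothing is read from that. Between the members lies Sobic.001G470700, a listed coding sequence of 225 bases with 0 counts in all 12 libraries. Among the 45 other transcripts of chromosome 1 whose locus number lies within 2000 of a member, Sobic.001G470700 included, 28 had enough mRNA counts to test and 26 enough footprints. By edgeR, 0 passed in mRNA (lowest adjusted p = 0.327) and 0 in footprints (lowest adjusted p = 0.644) in either direction, where 0.634% and 0.224% of all transcripts tested did. At an edgeR unadjusted p under 0.05 there were 3 of 28 in mRNA and 3 of 26 in footprints. Over all transcripts tested there were 2447 of 20045 in mRNA and 1140 of 16514 in footprints. DESeq2 likewise called 0 neighbours in each assay, where it called 259 of 20045 transcripts in mRNA and 95 of 16514 in footprints. The log2 fold changes of the tested neighbours ran from -1.03 to 0.34 in mRNA and from -0.69 to 0.58 in footprints. All lay below those of both members, but the pair was chosen with its rise known, so nothing is read from that order. The medians of the neighbours were -0.04 in mRNA and 0.03 in footprints, beside -0.01 in mRNA and 0.0011 in footprints over all transcripts tested. The response of the pair was not tested against that of its neighbours.

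The nearest listed transcripts were Sobic.001G470500.1 on the lower side, with 18 mRNA counts and 0 footprints over all libraries, and Sobic.001G470900.3 on the upper side. Sobic.001G470900.3, of 2061 coding bases, averaged 41.2 CPM in deficient and 52.9 CPM in control shoots in mRNA, and 28.3 CPM in deficient and 45.6 CPM in control shoots in footprints. Its log2 fold changes of -0.36 in mRNA (edgeR adjusted p = 0.604) and -0.69 in footprints (edgeR adjusted p = 0.674) did not pass.

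**Figure D5:**
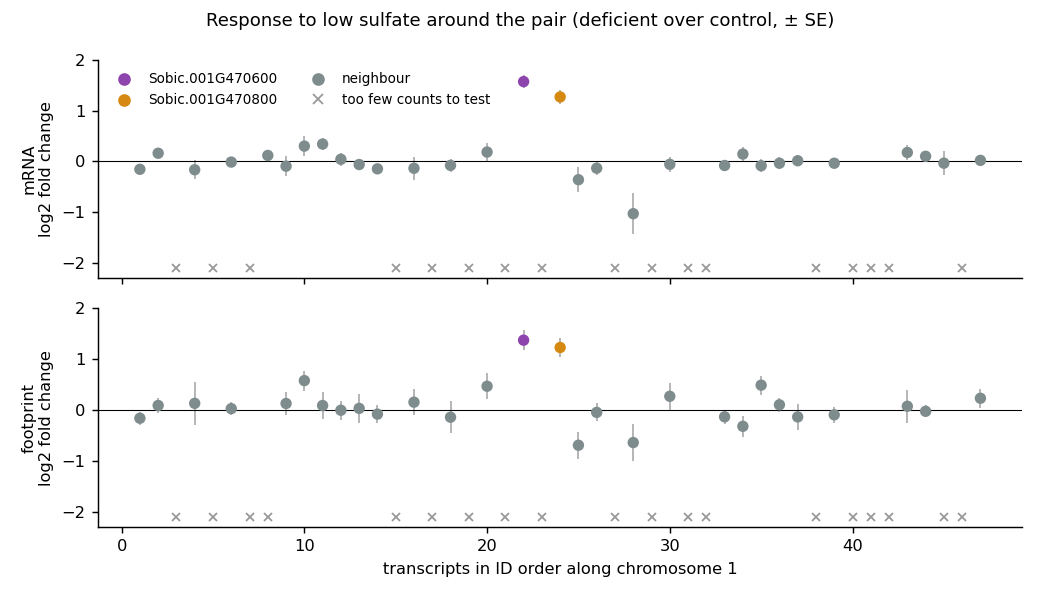
Log2 fold changes (± SE), sulfur-deficient over control, in mRNA (top) and footprints (bottom) for the pair and its neighbours in ID order along chromosome 1; the horizontal axis is the order of IDs, not distance. Crosses at the bottom mark transcripts with too few counts to test, and the members stand at 1.27 to 1.57 in mRNA and 1.23 to 1.38 in footprints, above all tested neighbours. The pair was chosen with its rise known, so nothing is read from that order.

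The transcripts most like the pair were sought by profile, as the root mean square difference over the 12 libraries between log2 CPM values centred within each assay. The members differed from each other by 0.315 log2 units. Of the 16418 other transcripts, 16 were closer to Sobic.001G470600 than its partner was, and 39 were closer to Sobic.001G470800. The median distance to all others was 0.789 and 0.675 log2 units. Both members were chosen with their rise known, and the profiles include that rise, so nothing is read from their closeness. Closest to the mean profile of the pair was Sobic.007G074500.1, at 0.103 log2 units, with log2 fold changes of 1.49 (SE 0.138) in mRNA and 1.26 (SE 0.141) in footprints. Next came Sobic.001G094300.1, at 0.128, with 1.36 (SE 0.104) in mRNA and 1.27 (SE 0.177) in footprints. Their products are not named in the sources used here.

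Sobic.007G074500.1 was close to the pair in mRNA level as well. It stood at 132, 170 and 157 mRNA CPM in deficient shoots 1, 2 and 3, against 52.5, 46.2 and 64.8 CPM in control shoots. Its footprints stood at 207, 205 and 253 CPM in deficient shoots 1, 2 and 3, against 90.8, 82.9 and 104 CPM in control shoots. In every shoot its footprint level was nearer to that of Sobic.001G470800 than to that of Sobic.001G470600. Sobic.001G094300.1 was far more abundant, at 959, 1116 and 1127 mRNA CPM in deficient shoots, against 463, 357 and 424 CPM in control shoots. In both, as in the pair, the treatments did not overlap in mRNA. They were picked for that likeness, so it carries no test.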

How the data were processed

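RNA-seq and Ribo-seq libraries of 6 shoots were analysed from 2 deposited tables of raw counts per transcript: RNA read counts, and footprints counted at the P site (the codon in the ribosome's peptidyl site) within each coding sequence, whose length is also listed. The authors deposited both without normalization. Footprints of 26 to 34 nt were cut from a gel, per the labels' protocols. The submitters' processing notes list Bowtie2 and STAR. Build, annotation, counting program, P-site offsets and handling of shared reads: not given in the sources used here. RNA reads outside the coding sequence would lower footprints per mRNA.

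Whole tables were fitted with edgeR 4.0.16 in R 4.3.3 (TMM factors, filterByExpr with a minimum count of 10 and minimum total of 15, robust quasi-likelihood, Benjamini-Hochberg threshold 0.05). Treatment was the term for each assay, and assay by treatment for footprints per mRNA. SEs were derived from the F statistic. Fits were tried on simulated counts with the same relative spread for every transcript and all libraries drawn independently. That check does not cover libraries that share a powder. RNA and footprint libraries of a shoot share 1 powder, and their deviations from group means correlated at 0.102 to 0.521. Members and lists were chosen with earlier results of these data known. Transcripts named are the members, the nearest IDs and the 2 most alike profiles (pseudocount 0.5 CPM). The lists by product description were void, since 0 IDs matched. DESeq2 1.42.0, other scaling, no filter, blocks and left-out shoots were alternatives.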

Additional observations from a re-analysis of the deposited data

How the results depend on the processing

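The mRNA and footprint fold changes of the pair, the ratio between its members and their footprints per mRNA moved by less than the spread between shoots and kept their sign under the alternatives run (DESeq2, other scaling factors, no filter, blocks, a pseudocount, counts not divided by length, left-out shoots, as each applied). The change in footprints per mRNA, which follows from differences known when the pair was chosen, never passed the threshold. For Sobic.001G470800 it was above 0 without deficient shoot 3 or control shoot 1, and below 0 otherwise. The mRNA and footprint contrasts chose the pair, so nothing is read from its calls. In mRNA both members passed the edgeR or DESeq2 threshold under 11 of 11 alternatives. In footprints each missed it under 4 of 11: Sobic.001G470600 without deficient shoots 2 and 3 and control shoots 1 and 2 (edgeR adjusted p = 0.0584 to 0.176), and Sobic.001G470800 with the replicate block and without deficient shoot 2 and control shoots 2 and 3 (0.0715 to 0.164). With 1 shoot left out, log2 fold changes ran from 1.43 to 1.67 (mRNA) and 1.20 to 1.60 (footprints) for Sobic.001G470600, and from 1.19 to 1.40 and 1.07 to 1.39 for Sobic.001G470800. The change in footprints per mRNA ran from -0.33 to -0.06 and from -0.13 to 0.14, at edgeR adjusted p of 0.858 to 1 and 0.947 to 1. With both members summed, an alternative chosen after seeing the data, it was -0.13.

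Over all transcripts, shared replicate numbers showed no steady pairing of deficient with control shoots (deviations from group means correlated at -0.14, 0.157 and -0.0571 for RNA and at -0.0172, -0.0239 and 0.116 for footprints). A pairing in single transcripts was not tested. With the replicate block, log2 fold changes were 1.58 (SE 0.103) and 1.26 (SE 0.125) in mRNA and 1.38 (SE 0.120) and 1.23 (SE 0.184) in footprints, in the order Sobic.001G470600, Sobic.001G470800. Without it, the SEs in that order were 0.133 and 0.132 in mRNA and 0.203 and 0.179 in footprints. With the shoot as a block, the changes in footprints per mRNA were -0.21 (SE 0.151) and -0.03 (SE 0.162), and neither passed.

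Counts of calls over all transcripts moved more. Against 127 in mRNA there were 259 with DESeq2, 200 without a filter and 35 to 508 with 1 shoot left out (lowest without control shoot 1, highest without deficient shoot 1). Against 37 in footprints there were 95 with DESeq2 and 11 to 70 with 1 shoot left out (lowest without control shoot 2, highest without deficient shoot 1). Each of the 6 shoots moved both counts by over 1.5 times. The cause was not tested. Between shoots, the footprints of Sobic.001G470600 varied by 20.4% (deficient) and 25.7% (control), against 4.48% and 6.35% from counting alone.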
